A study of Mus musculus with 12 samples.

Results

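The 10 genes described here carry the first steps of fatty acid handling in a cell, and they were chosen by name: Cd36, Slc27a2 and Slc27a4 for uptake, Fabp1, Fabp2, Fabp4 and Fabp5 for binding in the cytosol, Acsl3 for activation to acyl-CoA, Lpl for release from lipoproteins, and Pparg for regulation. All 10 were found among the 55385 features of the expression table, and all 10 were among the 16378 genes tested, those whose TPM (a level per transcript length, scaled to the same total in every library) averaged 1 or more over the 12 livers. The study asked whether hGULL, a human long noncoding RNA, could stand in for its mouse counterpart mGULL when the latter was knocked down in the liver. Male C57BL/6 mice aged 7 weeks received 1 of 3 adenovirus mixtures, with 500000000 plaque-forming units in each, and livers were taken on day 7 for total RNA sequencing. The 4 Ad-Ctrl mice (GULL_control) received the Lac and empty pAdV5 viruses, the 4 Ad-shmGULL mice (mGULL_knockdown) received the virus with the short hairpin RNA against mGULL together with pAdV5, and the 4 Ad-shmGULL+hGULL mice (hGULL_rescue) received the hairpin virus together with the virus expressing hGULL. All 3 groups therefore carried adenovirus, and no uninjected mice were part of the series. The labels name an intravitreal route and the study's account of virus delivery a retro-orbital one, the feeding state at collection is not given in the sources used here, and the level of mGULL itself was not analysed here.

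In liver, the multifunctional membrane receptor CD36 and the transport proteins of the Slc27a family bring long-chain fatty acids into the cell, and most Slc27a proteins also join them to coenzyme A. Fatty acid binding proteins carry them in the cytosol, with FABP1 as the abundant liver form, FABP2 as the intestinal form, FABP4 as the form of adipocytes, macrophages and capillary endothelium, and FABP5 as a broadly expressed epidermal form. ACSL3 is a long-chain acyl-CoA synthetase found on the endoplasmic reticulum and on lipid droplets. Lipoprotein lipase acts at the capillary wall and is low in the adult hepatocyte, and PPARγ is a nuclear receptor that binds fatty acids, dimerises with RXR on DNA and raises fat storage genes, Cd36 and Fabp4 among its known targets.

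Cd36, Slc27a4, Fabp1 and Acsl3 were the genes whose level in every Ad-shmGULL mouse was above that in every Ad-Ctrl mouse, and their promoters are shown for this reason. Each window runs from 250 bases before to 50 bases after a RefSeq transcription start, and is taken from RefSeq on GRCm38.p6, the build used for the expression table. Windows were found for 7 of the 10 genes, with 3 alternative starts for Pparg. The windows of Slc27a4, Fabp1 and Acsl3 lie at the first base of the gene in RefSeq. That of Cd36 lies at a start 53063 bases inside the gene as RefSeq spans it, so the flank of the outermost Cd36 start is not shown. The expression table gives no coordinates, so its own gene models were not compared with these starts. Capitals mark matches, on either strand, to 5 motifs: a direct repeat bound by PPAR with RXR and by related receptors (DR1, which is 2 copies of AGGNCA spaced by 1 base), the cyclic AMP response element (TGACGTCA), a sterol response element (TCACNCCAC), the CCAAT box (CCAAT) and the TATA box (TATAAA).
Cd36, chr5:17835847-17836146, minus strand: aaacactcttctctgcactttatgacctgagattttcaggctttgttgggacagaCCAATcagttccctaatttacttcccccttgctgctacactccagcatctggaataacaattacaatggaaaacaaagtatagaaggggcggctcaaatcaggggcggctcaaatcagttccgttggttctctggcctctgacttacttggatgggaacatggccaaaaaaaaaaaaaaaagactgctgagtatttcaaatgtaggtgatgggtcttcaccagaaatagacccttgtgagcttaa
Slc27a4, chr2:29802384-29802683, plus strand: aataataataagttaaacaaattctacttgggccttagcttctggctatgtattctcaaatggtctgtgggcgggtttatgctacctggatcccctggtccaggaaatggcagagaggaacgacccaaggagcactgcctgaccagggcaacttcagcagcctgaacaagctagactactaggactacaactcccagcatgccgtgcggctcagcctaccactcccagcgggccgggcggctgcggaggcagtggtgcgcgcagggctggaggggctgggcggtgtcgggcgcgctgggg
Fabp1, chr6:71199629-71199928, plus strand: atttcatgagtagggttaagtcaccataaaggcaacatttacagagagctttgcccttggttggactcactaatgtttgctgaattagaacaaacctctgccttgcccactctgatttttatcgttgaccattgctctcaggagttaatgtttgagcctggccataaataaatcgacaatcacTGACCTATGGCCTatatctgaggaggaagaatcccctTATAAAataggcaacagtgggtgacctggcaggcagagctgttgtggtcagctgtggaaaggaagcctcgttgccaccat
Acsl3, chr1:78657575-78657874, plus strand: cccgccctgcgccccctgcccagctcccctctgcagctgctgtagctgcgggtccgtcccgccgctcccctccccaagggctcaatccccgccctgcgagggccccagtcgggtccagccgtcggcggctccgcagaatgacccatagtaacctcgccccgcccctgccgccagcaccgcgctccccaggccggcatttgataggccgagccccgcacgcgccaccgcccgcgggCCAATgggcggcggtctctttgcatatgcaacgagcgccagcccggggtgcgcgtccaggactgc

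The Fabp1 window held a DR1 match on the minus strand from 67 to 55 bases before the start and a TATA box from 30 to 25 bases before it. The Cd36 window held a single CCAAT box 195 to 191 bases before that internal start, and the Acsl3 window, of which 74.0% of bases were G or C against 43.0% in Cd36, held one 15 to 11 bases upstream. No motif of the 5 was present in the Slc27a4 window. Among 32544 different promoter windows of the mouse genome, 0.384% held the DR1 letters, 1.80% the cyclic AMP element, 1.24% the sterol element, 37.4% a CCAAT box and 13.6% a TATA box. The cyclic AMP and sterol letters were absent from all 9 windows, which cover 7 of the 10 genes. Among these 7 genes DR1 was present in Fabp1 alone. Fabp4, Fabp5 and Lpl had no window and were not searched. These matches are a description of letters and not of bound sites.

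Every library summed to 1000000 TPM, so the sequencing depth behind a value is unknown and no counting interval could be given. Between 15525 and 16929 features reached 1 TPM per mouse. The 20 most abundant features took 29.6% to 33.3% of the total in Ad-Ctrl, 27.3% to 34.3% in Ad-shmGULL and 24.9% to 26.8% in Ad-shmGULL+hGULL. By this share every Ad-shmGULL+hGULL mouse was below every Ad-Ctrl mouse. The 8 hepatocyte markers, led by Alb, were present in all 12 livers. They summed to 77518 to 113350 TPM in Ad-Ctrl, 81192 to 96339 TPM in Ad-shmGULL and 69294 to 83887 TPM in Ad-shmGULL+hGULL. Ad-Ctrl mouse 2 had the fewest features at 1 TPM, and Ad-shmGULL mouse 2 the most. Several of the calls and correlations that follow are also given without these mice. The sources do not name anything beyond the mouse that could link or separate the samples, so each mouse was treated as independent. The limma p-values below set a difference against the spread between mice within groups. That spread was pooled over the 3 groups and moderated by that of other genes.

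Knockdown of mGULL was accompanied by higher expression of part of this gene set. Slc27a4 rose 1.48-fold and Acsl3 rose 1.53-fold in the ratio of group means, Cd36 was 2.86 times as high in mean TPM without reaching an adjusted p under 0.05, and Fabp1, the most abundant of the 10 genes, was 1.40 times as high, also without reaching it. Of the 10 genes, 2 (Slc27a4 and Acsl3) passed an adjusted p under 0.05 in limma with Benjamini-Hochberg adjustment over all 16378 genes, where 3.23% of all genes tested passed (2.44% higher, 0.794% lower), and 7 had an unadjusted p under 0.05, as did 20.2% of all genes. At the study's own threshold, which asks for a log2 difference larger than 0.5 in size and a p under 0.05 before adjustment, 5 of the 10 genes passed (Cd36, Slc27a4, Fabp4, Acsl3 and Pparg), all higher in Ad-shmGULL, against 7.65% of all genes in either direction, 5.35% higher and 2.30% lower. In 4 of the 10 genes all 4 Ad-shmGULL mice were above all 4 Ad-Ctrl mice, a pattern seen in 6.93% of all genes, and 0 of the 10 showed the reverse, seen in 2.06%. The median log2 fold change was 0.52 over the 10 genes and 0.087 over all genes. Without Ad-shmGULL mouse 2, 2 genes (Cd36 and Fabp4) passed the study's threshold instead of 5. Without Ad-Ctrl mouse 2, 4 genes passed it (Cd36, Fabp1, Fabp4 and Acsl3). Fabp1, at 0.52, gained it there, and Slc27a4 and Pparg lost it. Over 22 alternative settings of the fit, Acsl3 passed this threshold in 19, Slc27a4 in 17 and Pparg in 13.

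**Figure D1:**
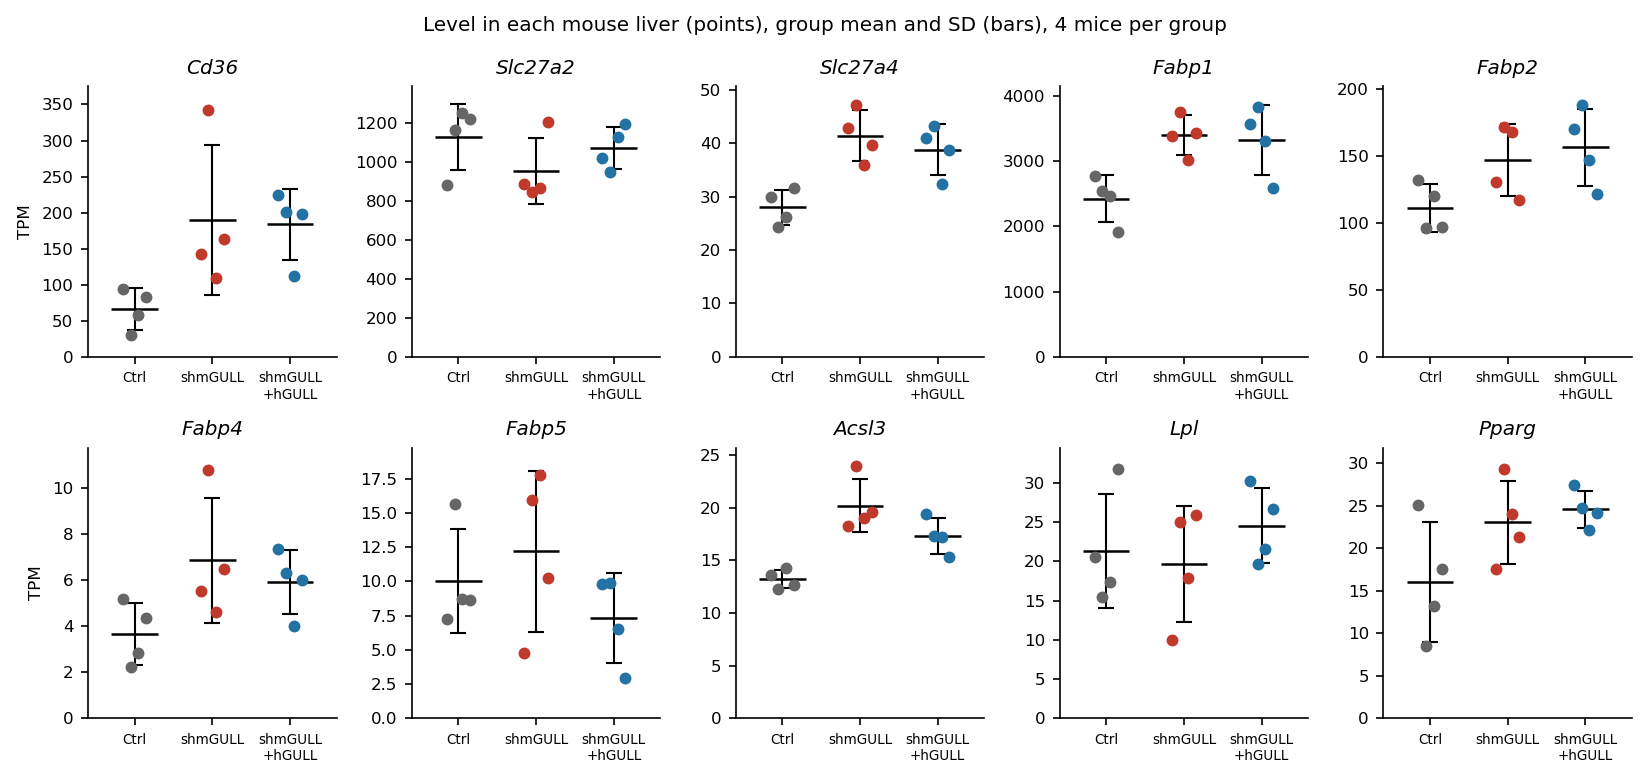
Level of each of the 10 genes in TPM (vertical axes, starting at 0, a different scale for each gene) in 4 mice per group; points are mice, horizontal lines group means and bars the SD. Cd36, Slc27a4 and Acsl3 lie above every Ad-Ctrl mouse in all 8 mice that received the hairpin virus. Fabp1 does so in 7 of the 8. Of all genes, 6.93% had all 4 Ad-shmGULL mice above all Ad-Ctrl mice, and 21.4% all 4 Ad-shmGULL+hGULL mice. The share with all 8 above was not computed.

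The levels of the 10 genes spanned from Fabp4, at 3.64 TPM in the mean of the Ad-Ctrl mice, to Fabp1, at 2430 TPM. Fabp1, Slc27a2, Fabp2 and Cd36 came next to each other in that order in the Ad-Ctrl livers, each above the next in all 4 mice with ranges that did not overlap. Slc27a4, Lpl, Pparg, Acsl3 and Fabp5 followed, each with a range that overlapped that of the gene before it, and Fabp4 was lowest in each of the 4 mice. In the Ad-shmGULL livers Cd36, at a mean of 189 TPM, stood above Fabp2, at 147 TPM, in 3 of the 4 mice, and the ranges of the pair overlapped. The order of Cd36 and Fabp2 was the same in the Ad-shmGULL+hGULL livers, again in 3 of 4 mice.

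Cd36 lies on chromosome 5, at 17781690 to 17888959. These are the first and the last base of the gene in RefSeq on GRCm38.p6, as for the genes that follow. Cd36 was at 93.9, 30.1, 57.4 and 83.5 TPM in the 4 Ad-Ctrl mice. In the 4 Ad-shmGULL mice it was at 142, 342, 110 and 164 TPM. The Ad-shmGULL+hGULL mice had 225, 200, 113 and 198 TPM. No mouse that received the hairpin virus was as low as the highest control. How many of all genes show this in both hairpin groups was not computed, which holds also for Slc27a4 and Acsl3 below. The 3.12-fold range among the Ad-shmGULL mice was as wide as that among the controls. On the log2(TPM + 1) scale used for all fold changes, Cd36 was higher by 1.49 (SE 0.39, 95% interval 0.65 to 2.32) in Ad-shmGULL than in Ad-Ctrl, with an adjusted p of 0.0558 and an exact two-sided permutation p of 0.0286, the smallest that 4 against 4 mice allow. The estimate was 1.16 without Ad-Ctrl mouse 2 (adjusted p = 0.141) and 1.16 without Ad-shmGULL mouse 2 (adjusted p = 0.131), and it passed the study's threshold in all 22 alternative settings. An adjusted p under 0.05 was reached in 5 of these 22 settings.

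Slc27a4 (chromosome 2, 29802634 to 29817522) encodes a transporter and acyl-CoA synthetase of low abundance in liver. Its levels were 29.9, 24.3, 26.1 and 31.6 TPM in Ad-Ctrl, 42.8, 47.2, 36.0 and 39.6 TPM in Ad-shmGULL, and 41.1, 43.2, 32.3 and 38.7 TPM in Ad-shmGULL+hGULL. All 8 hairpin-treated mice were above the highest control, although mouse 3 of the last group exceeded it by little. The difference between Ad-shmGULL and Ad-Ctrl was 0.55 (SE 0.12, 95% interval 0.30 to 0.80, adjusted p = 0.0270). Its adjusted p was over 0.05 in 8 of the 22 alternatives, among them the fits without Ad-Ctrl mouse 2 (0.0814) or 3 (0.0830) and without Ad-shmGULL mouse 1 (0.0507), 2 (0.0785) or 4 (0.0507). Slc27a4 made up between 1.13% and 1.92% of the summed TPM of the 6 Slc27a genes in the Ad-Ctrl mice and between 2.02% and 3.43% in the Ad-shmGULL mice. In the Ad-shmGULL+hGULL mice its share was between 1.72% and 2.80%, which overlapped the Ad-Ctrl range. These shares do not depend on the scaling of a library.

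Slc27a2 (chromosome 2, 126553024 to 126588243), a very long-chain acyl-CoA synthetase and transporter, accounted for 50.4% to 62.5% of the same family total in the 12 livers. It was at 884, 1168, 1252 and 1220 TPM in Ad-Ctrl, at 887, 846, 870 and 1206 TPM in Ad-shmGULL, and at 1023, 951, 1128 and 1194 TPM in Ad-shmGULL+hGULL. The groups overlapped, and Slc27a2 differed between Ad-shmGULL and Ad-Ctrl by -0.25 (95% interval -0.56 to 0.06, adjusted p = 0.351). Within each liver, 100 TPM of Slc27a2 were accompanied by 2.53 ± 0.61 TPM of Slc27a4 in Ad-Ctrl, 4.45 ± 0.97 TPM in Ad-shmGULL and 3.67 ± 0.76 TPM in Ad-shmGULL+hGULL (SD, n = 4). The ranges of this ratio overlapped slightly between Ad-Ctrl, whose highest value was 3.38, and Ad-shmGULL, whose lowest was 3.29.

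Among the binding proteins, Fabp1 (chromosome 6, 71199879 to 71205034) supplied 93.8% to 96.1% of the summed TPM of 10 fatty acid binding protein genes in every liver. Its levels were 2775, 2548, 2475 and 1920 TPM in Ad-Ctrl, 3392, 3763, 3014 and 3429 TPM in Ad-shmGULL, and 3568, 3831, 3315 and 2583 TPM in Ad-shmGULL+hGULL. The lowest Ad-shmGULL mouse was above the highest control, and 3 of 4 Ad-shmGULL+hGULL mice were. The log2 difference between Ad-shmGULL and Ad-Ctrl was 0.49 (SE 0.15, 95% interval 0.17 to 0.82, adjusted p = 0.0894), just under the fold limit of the study's threshold. It ranged from 0.38 without Ad-Ctrl mouse 4 to 0.64 after quantile normalization, and only after that normalization was its adjusted p under 0.05 (0.0470). Fabp1 is the gene whose promoter window above holds the DR1 letters.

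Fabp2 (chromosome 3, 122895072 to 122899506) is the intestinal form, and it was present in all 12 livers. It was at 132, 96.2, 121 and 97.0 TPM in Ad-Ctrl, at 131, 172, 168 and 117 TPM in Ad-shmGULL, and at 170, 188, 147 and 122 TPM in Ad-shmGULL+hGULL. The groups overlapped, with a difference of 0.39 (95% interval 0.04 to 0.74, adjusted p = 0.200) between Ad-shmGULL and Ad-Ctrl. Of the 8 enterocyte markers, Fabp6, Alpi, Cdx2 and Sis were listed at 0 in every liver, and the sum of the list came almost wholly from Apoa4, which liver also makes. That sum was 114 to 275 TPM in Ad-Ctrl, 271 to 374 TPM in Ad-shmGULL and 209 to 365 TPM in Ad-shmGULL+hGULL.

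Fabp4 (chromosome 3, 10204342 to 10208616) was the least abundant of the 10 genes. Its levels were 5.16, 2.23, 2.84 and 4.34 TPM in Ad-Ctrl, 5.54, 10.8, 4.60 and 6.49 TPM in Ad-shmGULL, and 7.33, 6.28, 4.01 and 5.99 TPM in Ad-shmGULL+hGULL. Ad-shmGULL mouse 3 lay within the range of the controls and the other 3 mice of its group above it. The difference between Ad-shmGULL and Ad-Ctrl was 0.75 (95% interval 0.19 to 1.30, adjusted p = 0.124), and it passed the study's threshold in all 22 alternatives but an adjusted p under 0.05 in 0 of them. FABP4 is abundant in adipocytes, and of the 8 adipocyte markers Lep was listed at 0 in all 12 livers, Adipoq was at or below 0.215 TPM and Plin1 at or below 0.138 TPM. The sum of the adipocyte list was 29.7 to 42.7 TPM in Ad-Ctrl, 40.0 to 79.3 TPM in Ad-shmGULL and 45.3 to 49.4 TPM in Ad-shmGULL+hGULL, most of it from Lipe and Adrb3 and, in Ad-shmGULL mouse 3, from Cfd at 37.9 TPM. Lipe, hormone-sensitive lipase, rose by 0.46 (adjusted p = 0.0262, limma) in Ad-shmGULL against Ad-Ctrl, a call made in 17 of 22 alternatives. The call was lost with the 2 groups alone (0.111), and without Ad-Ctrl mouse 2 (0.0789), 3 or 4 or Ad-shmGULL mouse 2 (0.0724). Lipe also rose by 0.44 (adjusted p = 0.0426) in Ad-shmGULL+hGULL against Ad-Ctrl, a call made in 9 of 22 alternatives. The part of adipocytes in the Fabp4 values was not tested.

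Fabp5 (chromosome 3, 10012585 to 10016610), on the same chromosome as Fabp4, had no common direction. Its levels were 7.25, 15.7, 8.69 and 8.62 TPM in Ad-Ctrl, 4.76, 15.9, 17.8 and 10.3 TPM in Ad-shmGULL, and 9.83, 9.90, 6.55 and 2.98 TPM in Ad-shmGULL+hGULL. With a 3.74-fold range within the Ad-shmGULL group alone, the difference from Ad-Ctrl was 0.17 (95% interval -0.69 to 1.03, adjusted p = 0.854). It became -0.04 without Ad-shmGULL mouse 3 and 0.52 without mouse 1. Fabp5l2, a copy of Fabp5 in the table, reached at most 0.663 TPM in any liver, and how reads shared by such copies were assigned is not given in the sources used here.

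Acsl3 (chromosome 1, 78657825 to 78707743) showed the tightest groups of the 10 genes among the controls, with a coefficient of variation of 6.61%. It was at 13.6, 12.3, 14.2 and 12.7 TPM in Ad-Ctrl, at 18.2, 23.9, 19.0 and 19.6 TPM in Ad-shmGULL, and at 19.4, 17.3, 17.2 and 15.3 TPM in Ad-shmGULL+hGULL. All 8 hairpin-treated mice were above all 4 controls. The difference between Ad-shmGULL and Ad-Ctrl was 0.57 (SE 0.10, 95% interval 0.35 to 0.79) with an adjusted p of 0.0139, the smallest of the 10 genes. The adjusted p stayed under 0.05 in 21 of 22 alternatives, all 12 fits that left out a mouse included, and was 0.0603 when Ad-Ctrl and Ad-shmGULL were fitted without the third group. As a share of the 5 Acsl genes, Acsl3 was between 1.76% and 2.17% in Ad-Ctrl, 2.66% and 2.92% in Ad-shmGULL, and 1.83% and 2.62% in Ad-shmGULL+hGULL, so that by share the Ad-shmGULL mice were above all mice of both other groups. Acsl1, the major hepatic long-chain form, held 52.5% to 67.1% of the family total.

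Lpl (chromosome 8, 68880555 to 68906932) was at 20.5, 15.5, 17.4 and 31.8 TPM in Ad-Ctrl, at 9.97, 24.9, 17.9 and 25.9 TPM in Ad-shmGULL, and at 30.2, 19.7, 21.6 and 26.6 TPM in Ad-shmGULL+hGULL. The 3 groups overlapped. The difference between Ad-shmGULL and Ad-Ctrl was -0.14 (95% interval -0.75 to 0.47, adjusted p = 0.830), and it turned to 0.06 without Ad-Ctrl mouse 4 and to 0.14 without Ad-shmGULL mouse 1.

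Pparg (chromosome 6, 115360879 to 115490404) was at 25.1, 8.49, 13.2 and 17.6 TPM in Ad-Ctrl, at 17.6, 29.3, 24.0 and 21.3 TPM in Ad-shmGULL, and at 27.4, 24.7, 22.2 and 24.1 TPM in Ad-shmGULL+hGULL. Control mouse 1 was above 6 of the 8 hairpin-treated mice, and the other 3 controls were at or below the lowest of them. The difference between Ad-shmGULL and Ad-Ctrl was 0.57 (95% interval 0.03 to 1.11, adjusted p = 0.220). It was 0.32 without Ad-Ctrl mouse 2 (adjusted p = 0.490) and 0.80 without Ad-Ctrl mouse 1 (adjusted p = 0.0476). One value per gene was deposited, so the transcripts from the 3 starts of Pparg were not separated.

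Expression of hGULL together with the hairpin was compared with the hairpin alone. Of the 10 genes, 0 passed the study's threshold (3.0% of all genes did, 2.33% higher and 0.672% lower), 0 an adjusted p under 0.05 in limma (0 of all 16378 genes did), and 0 an unadjusted p under 0.05 (10.7% of all genes did). The groups overlapped in all 10 genes, whereas 5.40% of all genes were higher and 0.983% lower in every mouse. The smallest unadjusted p was 0.0592, for Acsl3, which was lower by 0.21 with hGULL (95% interval -0.43 to 0.01, adjusted p = 0.476). After median-of-ratios scaling the Acsl3 difference was -0.30, with an unadjusted p of 0.00142 and an adjusted p of 0.408, and after quantile normalization it was -0.31 (adjusted p = 0.387). Cd36 differed by 0.05 with an interval of -0.79 to 0.89, Slc27a4 by -0.09 (-0.34 to 0.16), Fabp1 by -0.04 (-0.37 to 0.28) and Pparg by 0.11 (-0.43 to 0.65). These intervals stand beside differences between Ad-shmGULL and Ad-Ctrl of 1.49 for Cd36, 0.55 for Slc27a4, 0.49 for Fabp1 and 0.57 for both Acsl3 and Pparg. Fabp5 had the largest difference, -0.64 (-1.49 to 0.22, adjusted p = 0.568), and passed the study's threshold in 1 of 22 alternatives, without Ad-shmGULL mouse 1 (-0.99). The direction of the Cd36 difference depended on the scaling, at -0.05 after median-of-ratios scaling and -0.03 after quantile normalization. The median over the 10 genes was 0.0029 against 0.093 over all genes.

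Between Ad-shmGULL+hGULL and Ad-Ctrl, a comparison that shares each of its groups with one of the former, 3 of the 10 genes passed the study's threshold (7.49% of all genes, 6.84% higher and 0.641% lower) and 0 an adjusted p under 0.05 (2.15% of all genes, 2.12% higher and 0.0244% lower), while 7 had an unadjusted p under 0.05 (25.3% of all genes). Cd36 was higher by 1.54 (95% interval 0.70 to 2.37, adjusted p = 0.0548), Pparg by 0.68 (0.14 to 1.22, adjusted p = 0.127) and Fabp4 by 0.60 (0.04 to 1.15, adjusted p = 0.172). Slc27a4 was higher by 0.46 (adjusted p = 0.0555) and Acsl3 by 0.36 (adjusted p = 0.0683). In Cd36, Slc27a4 and Acsl3 all 4 mice were above all 4 controls, as was the case in 21.4% of all genes, and the reverse, seen in 0.855%, was found in 0 of the 10. All genes together were shifted upward in this comparison, with a median of 0.17, and relative to that median Cd36 was higher by 1.36, Pparg by 0.50, Fabp4 by 0.42, Slc27a4 by 0.29 and Acsl3 by 0.19. Without Ad-Ctrl mouse 2, or after median-of-ratios scaling, Cd36 alone passed the study's threshold (1.21 and 1.34), and Fabp4 also lost it without Ad-Ctrl mouse 3 and without Ad-shmGULL+hGULL mouse 1, 2 or 4.

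**Figure D2:**
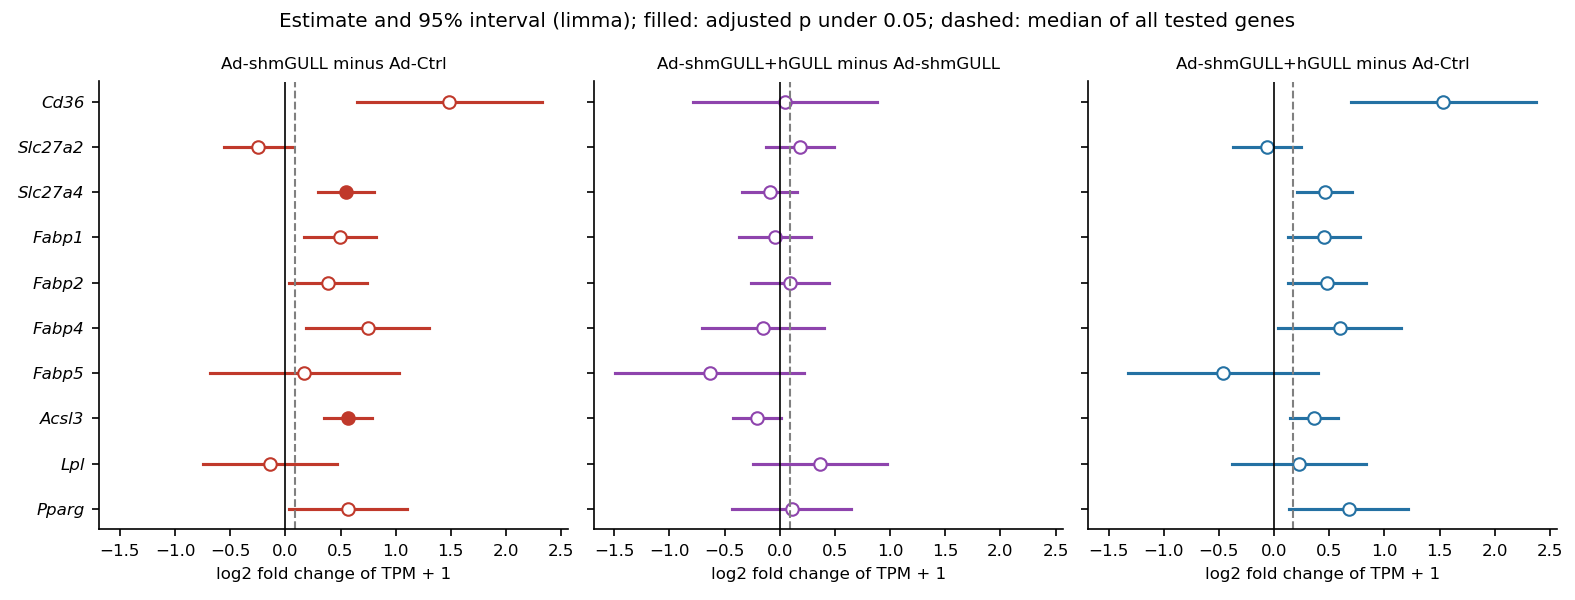
Log2 fold change of TPM + 1 (horizontal axis) of the 10 genes in the 3 comparisons, with limma's estimate as a circle, filled where the adjusted p is under 0.05, and the 95% interval as a line; the dashed line is the median of all 16378 genes. Only Slc27a4 and Acsl3, in Ad-shmGULL minus Ad-Ctrl, are filled, and the intervals of the middle comparison all include 0.

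Scaling moved these counts. In Ad-shmGULL minus Ad-Ctrl, median-of-ratios scaling brought the median of all genes from 0.087 to -0.003, and the 876 genes higher and 377 lower at the study's threshold became 625 and 548. Of the 10 genes, 2 (Cd36 and Fabp4) then passed the study's threshold in Ad-shmGULL minus Ad-Ctrl, both higher, and 3 an adjusted p under 0.05, since Cd36 (1.39, adjusted p = 0.0449) joined Slc27a4 (0.45) and Acsl3 (0.47). The direction of all 10 genes in Ad-shmGULL minus Ad-Ctrl was the same in the 10 alternatives that left out no mouse. In Ad-shmGULL+hGULL minus Ad-Ctrl, the 1121 genes higher and 105 lower at the study's threshold became 486 and 237 after median-of-ratios scaling.

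Several of the 10 genes varied together from mouse to mouse. Among the Ad-Ctrl livers Cd36, Fabp4 and Pparg all ran from mouse 1, the highest, through 4 and 3 to mouse 2, and in the Ad-shmGULL livers mouse 2 was the highest for Cd36, Slc27a4, Fabp1, Fabp2, Fabp4, Acsl3 and Pparg. Over the 12 mice Pearson's r of log2(TPM + 1) was 0.96 between Cd36 and Fabp4, 0.95 between Cd36 and Slc27a4 and 0.88 between Cd36 and Pparg, whereas it was -0.44 between Cd36 and Slc27a2 and 0.37 between Cd36 and Lpl. Without both Ad-Ctrl mouse 2 and Ad-shmGULL mouse 2, over 10 mice, these were 0.92 with Fabp4, 0.91 with Slc27a4, 0.72 with Pparg, -0.20 with Slc27a2 and 0.19 with Lpl. These values describe mice that also differ by group and share a library total, and no p is given.

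**Figure D3:**
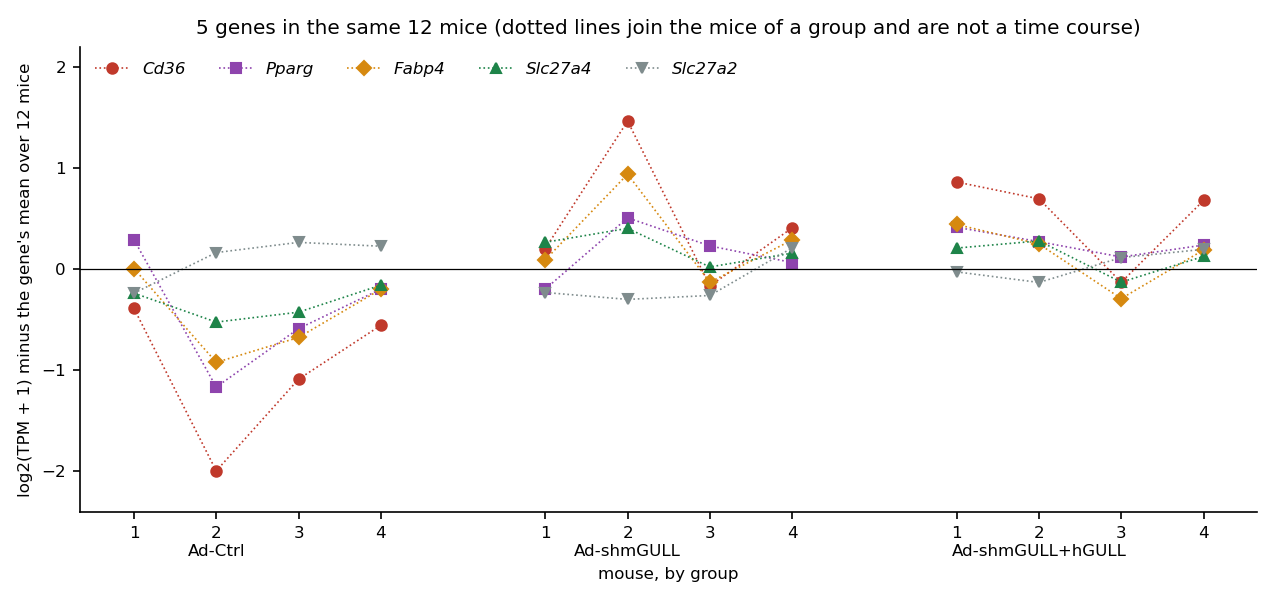
Level of 5 genes in each of the 12 mice as log2(TPM + 1) minus the gene's mean over all mice (vertical axis), with mice by group on the horizontal axis; lines only join the mice of a group. Cd36, Pparg, Fabp4 and Slc27a4 are lowest in Ad-Ctrl mouse 2 and highest in Ad-shmGULL mouse 2, and Slc27a2 does not follow them.

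The genes whose pattern over the 12 mice was most like that of Cd36 were Stt3b, a catalytic subunit of the oligosaccharyltransferase (Pearson's r = 0.991), Ermp1 (0.986), an endoplasmic reticulum metallopeptidase, and Tspan14 (0.981), a tetraspanin. For Slc27a4 they were Col12a1 (0.984), a collagen chain, Cgref1 (0.982) and Cyp2a4 (0.962), a steroid-hydroxylating cytochrome P450. Fabp4 was closest to Tfrc (0.972), the transferrin receptor, Vps36 (0.968) and Acbd3 (0.963), Acsl3 to Mocs2 (0.975), Pgrmc2 (0.971) and Cyb5b (0.968), and Pparg to Entpd5 (0.977), Rab3il1 (0.972) and Vps26c (0.972). Without both of the mice named above, the values of these 15 pairs lay between 0.912 (Fabp4 and Acbd3) and 0.991 (Cd36 and Stt3b); the search itself was made over all 12 mice.

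CD36 and FABP4 are also proteins of endothelial cells, and in whole liver a change in the number of cells of a type and a change in RNA per cell cannot be told apart. The 8 endothelial markers summed to 155 to 260 TPM in Ad-Ctrl, 243 to 328 TPM in Ad-shmGULL and 246 to 289 TPM in Ad-shmGULL+hGULL, with all 8 above 0 in every liver. Of the 8 markers, 1 (Stab2, 0.54, adjusted p = 0.0476) rose in Ad-shmGULL, 0 fell, and their median log2 fold change was 0.39. Stab2 had an adjusted p under 0.05 in 8 of 22 alternatives, with 0.112 without Ad-Ctrl mouse 2 and 0.119 without Ad-shmGULL mouse 2. The control mice stood in the same order by this sum as by Cd36, from 260 TPM in mouse 1 to 155 TPM in mouse 2. The other groups did not keep this match. In Ad-shmGULL mouse 2 was highest by both, but the lowest was mouse 1 by the sum and mouse 3 by Cd36. In Ad-shmGULL+hGULL mouse 1 had the lowest sum, 246 TPM, and the highest Cd36. Per 100 TPM of these markers, Cd36 was at 36.1, 19.5, 29.9 and 35.4 TPM in Ad-Ctrl, at 58.6, 104, 43.8 and 58.4 TPM in Ad-shmGULL and at 91.4, 75.9, 44.9 and 68.5 TPM in Ad-shmGULL+hGULL, so that the hairpin-treated groups remained above the controls in all 8 mice. The same ratio overlapped between Ad-shmGULL and Ad-Ctrl for Fabp4, at 1.44 to 1.98 TPM in Ad-Ctrl and 1.84 to 3.28 TPM in Ad-shmGULL, and for Pparg, at 5.48 to 9.65 and 7.25 to 9.58 TPM. The part of endothelial cells in these values was not tested. The 8 Kupffer cell markers overlapped between the groups, at 415 to 713, 395 to 659 and 457 to 606 TPM, as did the recruited macrophage list (83.2 to 133, 60.4 to 151 and 101 to 131 TPM) and the stellate cell list (102 to 201, 153 to 197 and 144 to 174 TPM). The T, NK and B cell list was low, at 16.1 to 48.7 TPM over the groups, and Gpihbp1, the endothelial anchor of lipoprotein lipase, carried the capillary list at 6.73 to 17.2 TPM.

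**Figure D4:**
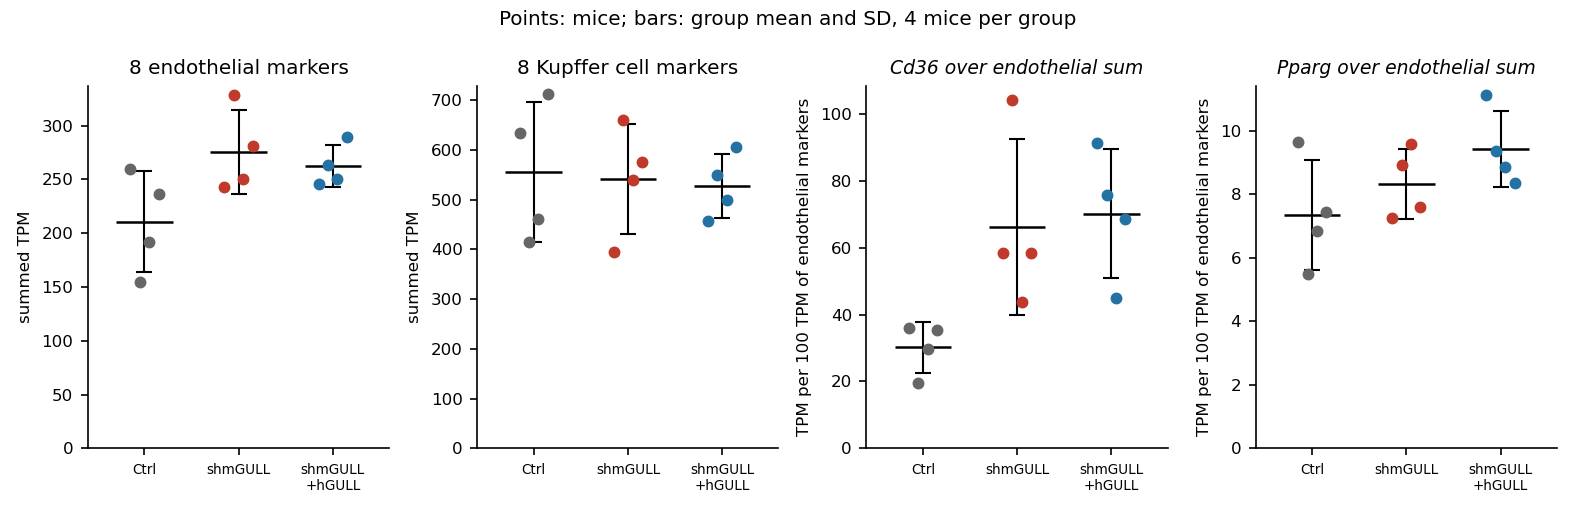
Summed TPM of 8 endothelial and 8 Kupffer cell markers, and Cd36 and Pparg in TPM per 100 TPM of the endothelial markers (vertical axes, from 0), in 4 mice per group; points are mice, lines means and bars the SD. Cd36 per endothelial marker sum is above every Ad-Ctrl mouse in all 8 hairpin-treated mice, and the Pparg ratio overlaps between Ad-Ctrl and Ad-shmGULL.

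Around the 10 genes, 68 other genes of the same steps were listed, of which 67 were in the table and 54 were tested. In Ad-shmGULL minus Ad-Ctrl 2 of the 54 rose and 0 fell, in Ad-shmGULL+hGULL minus Ad-shmGULL 0 changed, and in Ad-shmGULL+hGULL minus Ad-Ctrl 1 rose and 0 fell. These counts stand beside 3.23%, 0 and 2.15% of all genes, so that 2 and 1 of 54 are near the share over all genes. At the study's threshold the counts were 6 higher and 1 lower, 2 higher and 0 lower, and 5 higher and 0 lower, beside 5.35% higher and 2.30% lower, 2.33% and 0.672%, and 6.84% and 0.641% of all genes.

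Of the other fatty acid transporters, 7 of 8 were tested. At the study's threshold 3 were higher and 0 lower in Ad-shmGULL minus Ad-Ctrl, beside 5.35% and 2.30% of all genes. In Ad-shmGULL+hGULL minus Ad-shmGULL 2 were higher and 0 lower, beside 2.33% and 0.672%. In Ad-shmGULL+hGULL minus Ad-Ctrl 3 were higher and 0 lower, beside 6.84% and 0.641%. By adjusted p 0 of the 7 changed in Ad-shmGULL minus Ad-Ctrl, and the median difference of the 7 was 0.41. Slc27a5, the bile acid and very long-chain acyl-CoA synthetase and the most abundant of them, was at 804 ± 136 TPM in Ad-Ctrl, 676 ± 146 TPM in Ad-shmGULL and 629 ± 92.9 TPM in Ad-shmGULL+hGULL (SD, n = 4; adjusted p = 0.440 for the first difference). Cav1, the scaffold protein of caveolae, was at 4.70 ± 2.09, 9.62 ± 4.12 and 15.9 ± 4.39 TPM in the same order, and it rose by 1.61 (SE 0.33, adjusted p = 0.0414) in Ad-shmGULL+hGULL against Ad-Ctrl. No pathway gene passed in that comparison after either change of scaling, without the filter or the trend, with the replicate block, or without Ad-Ctrl mouse 2, 3 or 4, Ad-shmGULL mouse 4 or any mouse of Ad-shmGULL+hGULL. Caveolin is also abundant in endothelial cells, whose marker sums are given above.

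Among the other binding proteins, 5 of 10 were tested and 0 changed in any comparison, and Scp2, the sterol carrier protein and the most abundant of the list, was at 1880 ± 107 TPM in Ad-Ctrl and 1709 ± 216 TPM in Ad-shmGULL. Of the other acyl-CoA synthetases, 11 of 16 were tested, and Acss3, a short-chain synthetase of mitochondria that prefers propionate, rose by 1.23 (SE 0.21, adjusted p = 0.0139) in Ad-shmGULL, from 9.36 ± 2.96 to 22.7 ± 4.69 TPM, with 17.8 ± 2.77 TPM in Ad-shmGULL+hGULL, and kept an adjusted p under 0.05 in 21 of 22 alternatives (0.0578 with the 2 groups alone). Acsm1, a medium-chain synthetase and the most abundant of that list, was at 494 ± 23.7 TPM in Ad-Ctrl and 450 ± 83.6 TPM in Ad-shmGULL. The lipoprotein lipase list had 15 of 16 genes tested, and Sel1l, an endoplasmic reticulum protein needed for lipase maturation, rose by 0.27 (SE 0.06, adjusted p = 0.0298), from 80.5 ± 3.42 to 97.4 ± 2.51 TPM. The Sel1l call was lost in 14 of 22 alternatives, among them median-of-ratios scaling (0.17, adjusted p = 0.243), quantile normalization (0.19, adjusted p = 0.151) and the fits without Ad-Ctrl mouse 2, 3 or 4, Ad-shmGULL mouse 2 or 4 or any mouse of Ad-shmGULL+hGULL. Its most abundant gene, Apoc1, was at 4950 ± 705 TPM in Ad-Ctrl and 4003 ± 853 TPM in Ad-shmGULL. Of the list of PPAR partners and liver PPARγ targets, 16 of 18 genes were tested and 0 changed in any comparison. This list also held other receptor genes, Ahr among them, that are neither partners nor targets. Rxra, the receptor that pairs with PPARγ, was at 273 ± 29.3, 247 ± 22.4 and 290 ± 12.3 TPM (SD, n = 4). At the study's threshold 1 of this list was higher in Ad-shmGULL than in Ad-Ctrl and 1 lower, beside 5.35% and 2.30% of all genes. These were Plin4 (0.73, adjusted p = 0.0501) and the receptor gene Ahr (-0.59, adjusted p = 0.0994).

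**Figure D5:**
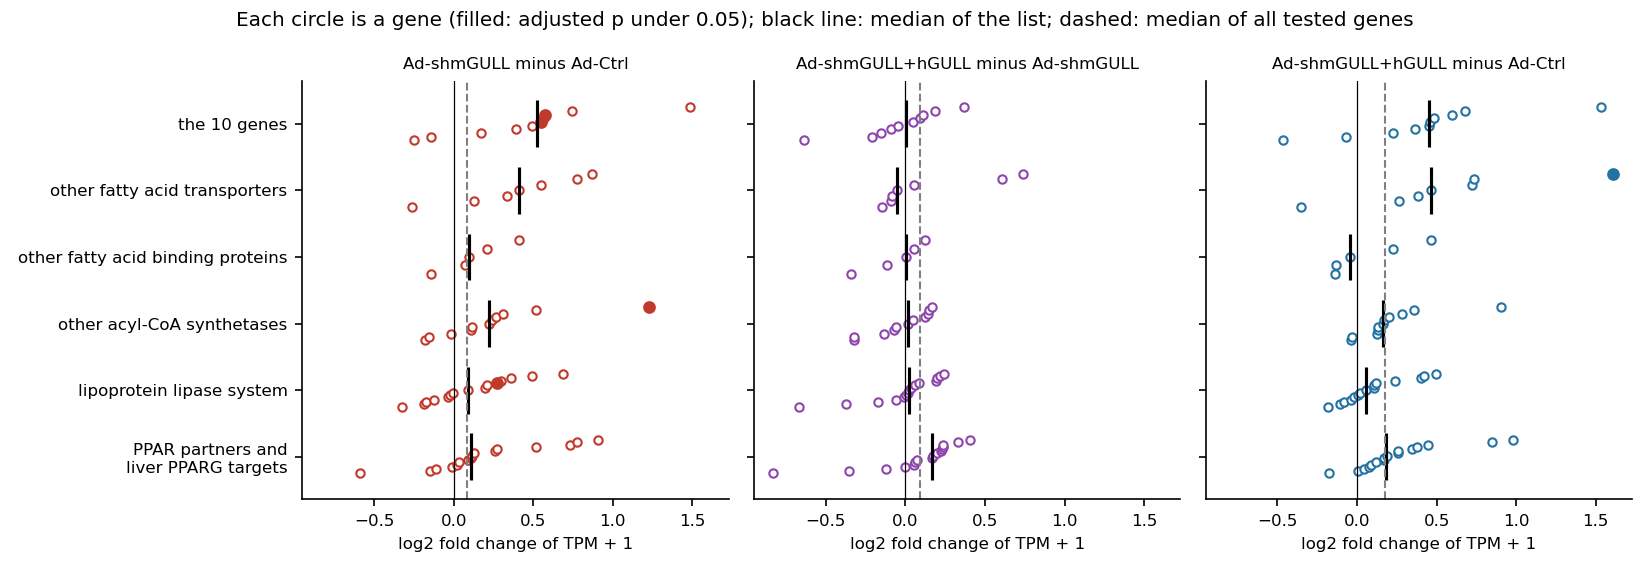
Log2 fold change of TPM + 1 (horizontal axis) of the 10 genes and of 54 other genes in 5 lists (rows) in the 3 comparisons; circles are genes, filled where the adjusted p is under 0.05, black lines the medians of the lists and the dashed line the median of all 16378 genes. In Ad-shmGULL minus Ad-Ctrl the medians of the 10 genes (0.52) and of the other transporters (0.41) lie to the right of the dashed line (0.087).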

How the data were processed

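Total RNA from 12 livers was made into strand-specific Illumina TruSeq libraries. Per the study's methods, the authors trimmed reads with fastp 0.23.2, checked them with FastQC 0.11.8, aligned them with HISAT2 2.2.1.0 to GRCm38.p6 and used the GENCODE VM24 annotation; the submitters' processing notes also name featureCounts and Subread 2.0. The deposited values are TPM, scaled by the authors to 1000000 per sample, which keeps no depth. The 37 mitochondrial features are listed at 0 in all samples.

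Here log2(TPM + 1) of the 16378 genes that averaged 1 TPM or more was fitted with limma 3.58.1 (R 4.3.3), 3 groups in 1 fit with a mean-variance trend, with Benjamini-Hochberg adjustment over all of them; fold changes on this scale understate those of low genes. The fit was tested on simulated data. The study's methods do not name its test, so only its threshold was used. Exact permutation tests were two-sided. "Rose", "fell" and "changed" are used for adjusted p-values under 0.05. The genes, lists and rules were chosen with earlier results of these data known. Named beside the 10 genes are the genes of each list with an adjusted p under 0.05 and its most abundant gene, marker genes that were at 0 or needed to describe a list, and the 3 genes most like each gene past the study's threshold. Acsl1, Gpihbp1, Plin4 and Ahr were named after their values were seen. Alternatives were another pseudocount, 2 filters, 2 scalings, the 2 groups alone, no trend, array weights, the replicate number as a block, each mouse left out, and protein-coding genes only.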

Additional observations from a re-analysis of the deposited data

Results flagged for a closer look

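Of 30 groups of 4 values checked (10 genes in 3 groups), 1 held a mouse far from the others, and chance gives such a mouse in about 1 in 20 groups. Slc27a2 was at 1206 TPM in Ad-shmGULL mouse 4, while the next mouse of the group had 887 TPM, a gap of 0.886 of the range of the group. The value lay within the range of the Ad-Ctrl mice. Without this mouse the difference of Slc27a2 between Ad-shmGULL and Ad-Ctrl was -0.37 on the log2 scale (adjusted p = 0.164, limma) in place of -0.25.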

How the results depend on the processing

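The counts of calls, the fold changes of the 10 genes and those of Acss3, Sel1l, Cav1, Stab2 and Lipe were recomputed under 22 alternatives, 1 of which, protein-coding genes only, was chosen after seeing the data, as were the correlations without 2 of the mice. Marker sums, family shares and ratios within a liver were not recomputed. The cause of the differences was not tested. In Ad-shmGULL minus Ad-Ctrl, 5 of the 10 genes passed the study's threshold, against 2 after median-of-ratios scaling, 3 after quantile normalization and 2 to 6 with a mouse left out. An adjusted p under 0.05 was found for 2 of them, against 1 without a filter, 0 with the 2 groups alone, 1 with array weights and 1 to 4 with a mouse left out, and for 2 other pathway genes, against 1 after either scaling, 0 with the 2 groups alone, 1 without the trend and 1 to 5 with a mouse left out. In Ad-shmGULL+hGULL minus Ad-shmGULL the counts stayed at 0, except for 1 gene past the study's threshold without Ad-shmGULL mouse 1 (0 to 1 with a mouse left out). In Ad-shmGULL+hGULL minus Ad-Ctrl, 3 genes passed the study's threshold, against 1 after either scaling, 5 with array weights and 1 to 5 with a mouse left out. An adjusted p under 0.05 was found for 0 of them, against 2 with a mean TPM of at least 5, 3 with the 2 groups alone, 6 with array weights, 3 with protein-coding genes and 0 to 3 with a mouse left out, and for 1 other pathway gene, against 0 without a filter, after either scaling and without the trend, 4 with a mean TPM of at least 5, 9 with the 2 groups alone, 12 with array weights, 5 with protein-coding genes and 0 to 8 with a mouse left out. The calls over all genes moved with these settings. Of all 16378 genes, 348 were higher and 4 lower at this adjusted p in the main fit. With array weights the counts were 3059 and 125, and with the 2 groups alone 1635 and 58. They were 562 and 6 of 10948 genes with a mean TPM of at least 5, and 799 and 10 of 12118 protein-coding genes.

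Directions turned in 17 values, all of them of differences with adjusted p over 0.05; the ranges given are those with a mouse left out. In Ad-shmGULL minus Ad-Ctrl these were Fabp5 (-0.044 without Ad-shmGULL mouse 3, range -0.044 to 0.52) and Lpl (0.062 without Ad-Ctrl mouse 4, range -0.30 to 0.14). In Ad-shmGULL+hGULL minus Ad-shmGULL they were Cd36 (-0.049 and -0.032 after the scalings, range -0.17 to 0.38), Fabp1 (range -0.12 to 0.073), Fabp2 (-0.0056 after median-of-ratios scaling, range -0.0093 to 0.21), Fabp4 (range -0.29 to 0.063) and Pparg (range -0.0065 to 0.23).

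No pairing of the mice by replicate number was evident: 2 of 12 same-numbered pairs correlated above 0.1 (range -0.244 to 0.154), and 8 of 24 best matches had the same number. With 4 mice per group this check cannot exclude a pairing. With the replicate block, 4, 0 and 3 of the 10 genes passed the study's threshold and 2, 0 and 0 an adjusted p under 0.05 in the 3 comparisons, and 1, 0 and 0 other pathway genes did. Depth is unknown, so the counting error of low genes such as Fabp4 cannot be set apart from the spread between mice.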
